A study of Homo sapiens with 97 samples.

Results

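Replication timing was mapped around 96 DNA break sites that lie in earlier-replicating sequence, and the list holds 33 further sites in mid-late or late sequence. The sites are recognition sites of the restriction enzyme AsiSI at which MRE11, a nuclease subunit that binds broken DNA ends, was bound in HCT116 cells. A site was taken when its midpoint lay in a U2OS interval of the early or the mid-early class, which gave 62 early and 34 mid-early sites. All timing intervals within 500 kb on either side of such a site were then followed, and these were 801 of the 22719 intervals listed on nuclear chromosomes. Of these, 293 were early, 381 mid-early, 121 mid-late and 6 late. Around the 33 later-replicating sites lay 364 intervals, of which 15 were shared with the 801.

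The study followed replication near DNA double-strand breaks in 97 samples of 50 groups, and 6 region lists were used here. MRE11 was mapped in 2 samples of HCT116, a colorectal carcinoma line, that had no LIG4, the ligase which seals ends in non-homologous joining, and in which cohesin's RAD21 subunit bore an auxin-dependent degron (AID). These cells were treated with 4-hydroxytamoxifen (4OHT) at 300 nM for 4 h, which lets AsiSI cut. Their labels name no auxin (IAA), which those of some other samples of this line do, and do not state the RAD21 level. Timing came from wild-type, untreated U2OS cells, an osteosarcoma line, as merged G1 and S phase samples. The peaks of nascent strand sequencing (NS-seq) came from AsiSI-U2OS cells in a merged list that does not separate 4OHT from control cells. The break sites and the timing map are therefore from different lines, and a site's class is its class in uncut U2OS cells. No list separates replicates or gives read depth, so no difference was tested, and the 95% intervals below cover counting error only and treat sites as independent.

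As background, a genome is copied in a reproducible order, in which large domains fire many origins early in S phase and others wait until late. Early domains are on the whole rich in genes and open chromatin, and late domains are gene-poor and often lie at the nuclear lamina. Between them are transition zones that are copied at intermediate times. NS-seq purifies short new strands that start with an RNA primer and so marks origins, the places where copying starts. AsiSI cuts DNA only at unmethylated copies of its recognition sequence, and its sequence holds 2 CpG dinucleotides.

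The recognition sequence of the enzyme is shown because the sites are listed as AsiSI sites, and it was not read at the sites themselves:
AsiSI: GCGATCGC
Each listed site is 8 bp wide, the length of this sequence, which reads the same on both strands. It was present in 73 of 35116 RefSeq promoter windows of 300 bp in the build GRCh38.p14, a share of 0.208%. The sites are on hg19, so these promoters were not matched to the sites and no gene names are given for them.

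The sites were spread over 23 chromosomes, with the most, 11, on chromosome 17, followed by 8 each on chromosomes 2 and 19 and 7 on chromosome 6. Their windows covered 89.7 Mb when overlapping bases were counted 1 time, which is 2.98% of the listed genome. Of that sequence, 63.4% was early, 26.1% mid-early, 10.2% mid-late and 0.324% late, while the 4 classes took 25.5%, 23.7%, 25.9% and 24.9% of the listed genome. The site rule fixes the class at the centre, so the excess of early sequence at short range follows from it. Values further out are therefore given beside the same measure over every listed early or mid-early position, taken on a 1 kb grid. Where it is named so, this measure was also weighted to the chromosomes of the sites.

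The map of all windows shows that most early sites sat in long early stretches interrupted by short mid-early ones. A window held a median of 5 changes of class (4 to 6). Early sites had a median of 3.5 changes (2 to 5) and mid-early sites 6.5 (6 to 8), against 4 and 6 at all positions of these classes. In 49 of 96 windows (51.0%, exact Clopper-Pearson interval 40.6 to 61.4) only early and mid-early sequence was listed, and 46.6% of positions had such a window. These were 40 of 62 early sites (64.5%, 51.3 to 76.3, with 56.2% of positions) and 9 of 34 mid-early sites (26.5%, 12.9 to 44.4, with 29.0% of positions). All 3 intervals hold the value of the positions. The mid-early positions include intervals over 1 Mb, which none of the sites cut. With the sites' chromosome mix they had 23.5%, also inside the interval.

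**Figure D1:**
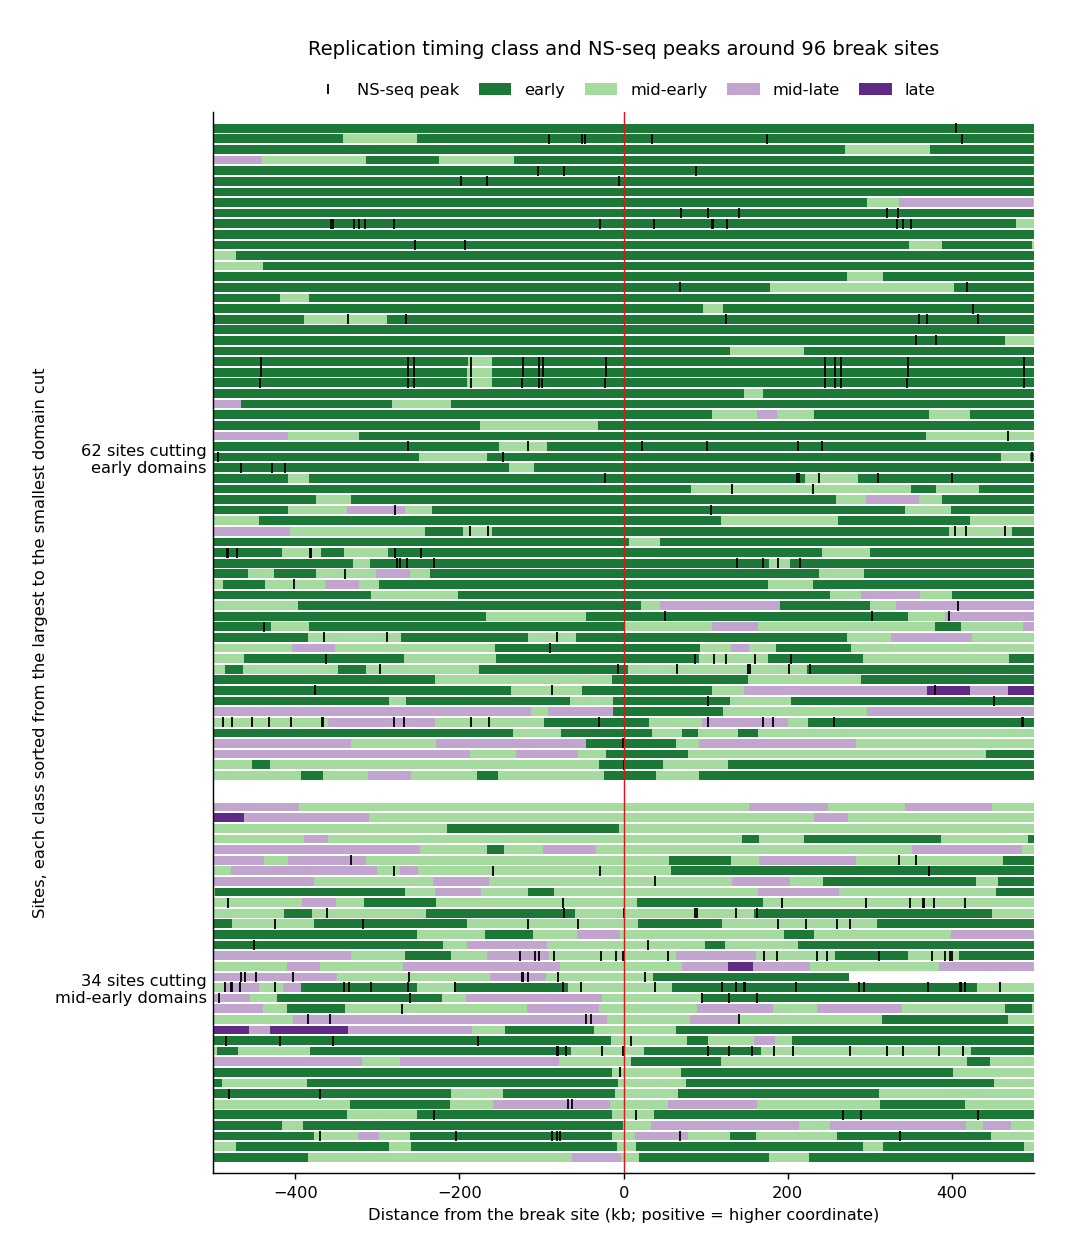
Each row is the window of 1 break site, with the distance from the site in kb on the horizontal axis, the timing class as colour and NS-seq peaks as black ticks. The 62 early sites are above and the 34 mid-early sites below, each sorted from the largest to the smallest domain cut. Late sequence appears in 4 windows.

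Around early sites the early share was lower with each step over the first 200 kb and then level out to 500 kb. It was 93.3% ± 13.6 (SD, n = 62 sites) in the first 50 kb, 84.6% ± 27.0 at 50 to 100 kb, 78.0% ± 30.6 at 100 to 150 kb and 74.8% ± 31.6 at 150 to 200 kb. In the next steps it lay between 71.9% and 78.0%, with 75.3% ± 33 at 450 to 500 kb. Over all early positions the share was lower in every step than in the step before, from 92.0% in the first step to 71.5% at 150 to 200 kb and 61.9% at 450 to 500 kb. Weighted to the chromosomes of the sites, the last value was 64.0%. The standard error of the sites' mean in that last step was 4.19 percentage points, taking sites as independent. The spread between sites was wide, and 33 of 62 sites were wholly early in the last step while 6 held no early sequence there.

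The place of the missing early sequence was taken mainly by mid-early sequence. Mid-early made up 5.97% of the first step, 19.1% at 300 to 350 kb and 15.1% at 450 to 500 kb, against 25.1% for all early positions in the last step. Mid-late sequence made up 0.760% of the first step and 9.10% of the last, against 0.391% and 12.2% for all early positions. No early site had late sequence within 350 kb, and 1 of 62 had it beyond. The lower and the higher coordinate side were alike, with early shares of 93.2% and 93.4% in the first step and 74.3% and 76.2% in the last.

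Mid-early sites were flanked by early sequence within a short distance. The early share was 17.6% ± 21.4 (SD, n = 34 sites) in the first 50 kb, 38.3% ± 34.8 at 50 to 100 kb and 43.3% ± 37.5 at 100 to 150 kb. It reached 47.9% ± 35.4 at 300 to 350 kb and was 38.3% ± 35.2 at 450 to 500 kb. All mid-early positions had less early sequence in each of the 10 steps, with 8.17%, 18.6% and 22.8% in the first 3 and 27.1% in the last. This reference holds mid-early intervals over 1 Mb, which none of the sites cut. Without them the positions had 10.4%, 23.6% and 29.0% in the first 3 steps and 34.4% in the last, still under the sites. The standard error of the sites' mean in the last step was 6.04 percentage points, larger than its distance from the 34.4% of these positions.

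Over the whole window, mid-early sites had 40.1% ± 27.0 early, 42.5% ± 19.6 mid-early, 16.7% ± 15.6 mid-late and 0.610% ± 2.48 late sequence. All mid-early positions had 23.1%, 53.8%, 21.0% and 2.05%, and with the sites' chromosome mix 26.8% early and 48.9% mid-early. Both references include the mid-early intervals over 1 Mb, which raise their mid-early and lower their early share. The whole window was not measured without them. Early sites had 77.9% ± 23.1 early sequence in the window, beside 71.2% for all early positions and 72.8% with the chromosome mix. The higher coordinate side of mid-early sites was the richer in early sequence beyond 250 kb, for example 54.9% against 42.6% at 300 to 350 kb. The sides hold the same 34 sites, and this difference was not tested.

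**Figure D2:**
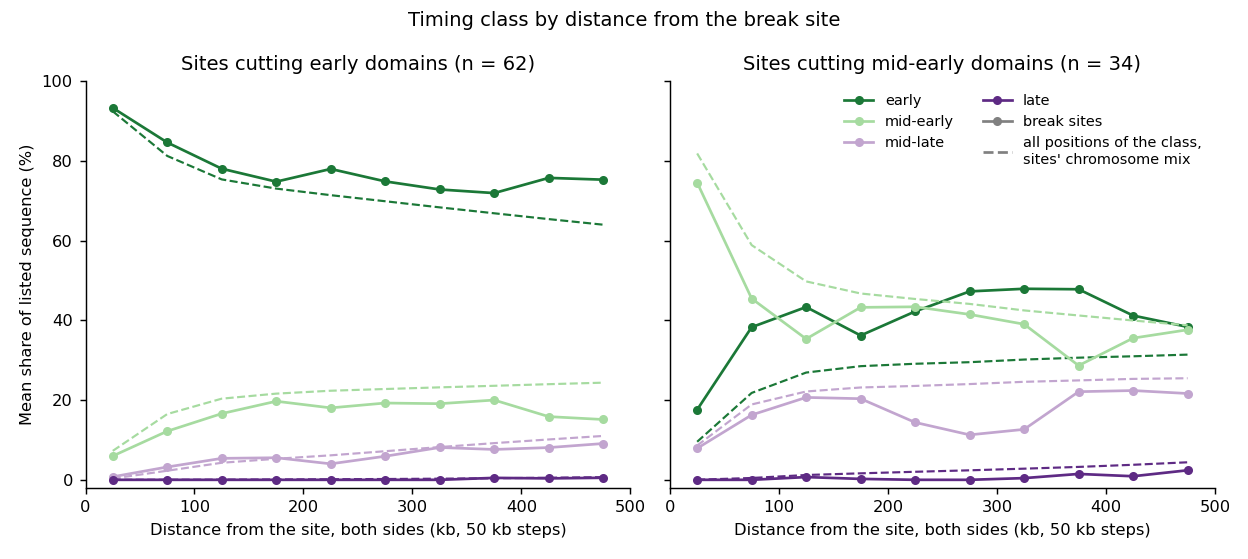
Mean share of listed sequence in each timing class (%) against distance from the site in 50 kb steps, both sides together, for early sites (left) and mid-early sites (right). Dashed lines give all listed positions of the same class with the sites' chromosome mix. At 450 to 500 kb the early curve of early sites is at 75.3% and its dashed line at 64.0%.

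Of 96 windows, 7 were wholly early, which is 11.3% of early sites, beside 11.4% of early positions. They were at chr2:43358338-43358345, chr2:43452553-43452560, chr2:172289897-172289904, chr7:75807506-75807513, chr7:92157732-92157739, chr7:99679507-99679514 and chr14:53162356-53162363 (hg19). The first 2 cut the same domain, 94.2 kb apart. The late border nearest to any of the 7 was 1947 kb away, and 3 of these windows held no NS-seq peak.

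A domain here is a run of adjacent intervals of 1 class. The early domains cut were large, and about as large as the domain in which a random early base lies. Their median size, counted by site, was 656 kb (exact order-statistic interval 552 to 882, n = 62), with a range from 63.5 to 2785 kb. All 2598 early domains had a median of 151 kb, but long domains hold more bases, and the median early position lay in a domain of 605 kb (662 kb with the chromosome mix). Domains of 1 Mb or longer were cut by 21 sites (33.9%, 22.3 to 47.0), and such domains held 30.8% of early positions. The share of domains that held a site was higher in each larger size range, from 0.620% of 1290 domains under 150 kb to 1.36% at 150 to 500 kb, 6.55% at 500 to 1000 kb and 12.8% of 149 domains of 1 Mb or longer. Per length the order was less even, at 7.98, 5.47, 10.3 and 8.88 sites per 100 Mb in these 4 size ranges.

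The 5 largest early domains cut reached from 2785 to 1940 kb. The largest, of 2785 kb, was cut at chr7:99679507-99679514, 590 kb from its nearer edge. The next, of 2710 kb, was cut at chr17:42440934-42440941, 252 kb from its nearer edge, and had mid-late sequence as its neighbour on the higher side. A domain of 1958 kb was cut at chr3:171757609-171757616 and one of 1954 kb at chr11:85375654-85375661. The domain of 1940 kb on chromosome 2 was cut at both sites named above, 933 and 839 kb from its edge.

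The 5 smallest early domains cut lay between 63.5 and 111 kb. They held the sites chr7:29604606-29604613 (63.5 kb), chr2:120124565-120124572 (78.1 kb), chr5:79784139-79784146 (100 kb), chr20:1207615-1207622 (110 kb) and a site on chromosome 8 (111 kb). Around these sites 10.9 to 52.4% of the window was early. The lowest value belonged to the chromosome 20 site, where the cut domain was all the early sequence in the window and 54.2% was mid-late.

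The mid-early domains cut were smaller than the early ones, and 4 were over 500 kb. Their median was 128 kb (89.3 to 219, n = 34), with a range from 21.8 to 548 kb, and each held 1 site. All 4977 mid-early domains had a median of 81.8 kb, and the median mid-early position lay in a domain of 218 kb, or 164 kb without intervals over 1 Mb, both inside the sites' interval. Domains under 150 kb were cut by 19 of 34 sites (55.9%), and held 35.9% of mid-early sequence. Per length there were 7.42 sites per 100 Mb in domains under 150 kb, 4.04 at 150 to 500 kb and 12.1 at 500 to 1000 kb, where 4 sites (11.8%) lay on 4.63% of mid-early sequence. No site cut any of the 24 mid-early domains of 1 Mb or longer, which hold 21.3% of mid-early sequence. For 0 of 34 sites the exact interval reaches 10.3%. Several of these long domains were of similar size, since domains up to 2930 kb held 78.8% of mid-early sequence and those up to 3096 kb 84.3%. Leaving out intervals over 1 Mb raised the NS-seq peak density within 10 kb of mid-early positions from 1.61 to 2.04 per Mb. Whether sites or peaks could be detected in these intervals was not checked.

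The 4 largest mid-early domains cut were on chromosomes 5, 6 and 11. They were 548 kb at chr6:27661900-27661907, 542 kb at chr5:43041612-43041619, 537 kb at chr11:110301048-110301055 and 505 kb at chr6:90348186-90348193. The 4 smallest were 21.8 kb at chr17:1628453-1628460, 23.1 kb at chr10:3826315-3826322, 27.9 kb at chr19:45932079-45932086 and 34 kb at chr6:144607568-144607575. The last site was 0.171 kb from an early border.

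**Figure D3:**
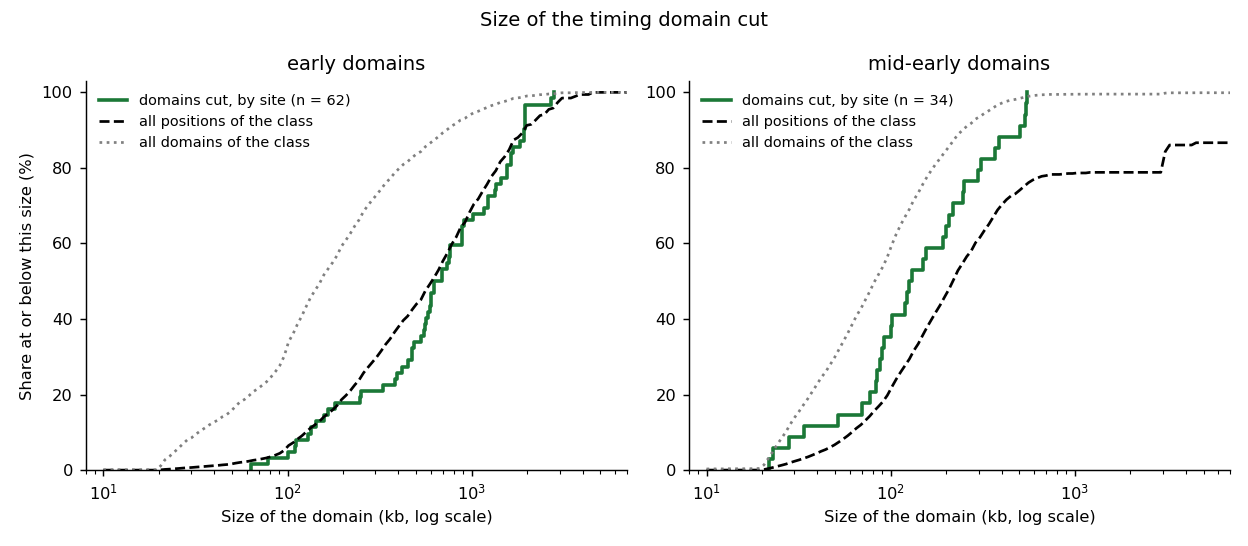
Cumulative share (%) of the domains cut, by site, against domain size in kb on a log scale, for early (left, 62 sites) and mid-early domains (right, 34 sites). The dashed line weights all domains of the class by length and the dotted line counts each domain equally. The early curve follows the length-weighted line, while the mid-early curve lies to its left, with medians of 128 and 218 kb.

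Within their domains, sites lay about where positions in general lie. The nearer edge was a median of 161 kb away for early sites (107 to 233) and 25.4 kb for mid-early sites (14.5 to 58.0). As a share of the domain's length these distances had medians of 0.240 and 0.241, beside 0.250 for all positions of either class. For early sites the nearest early border is this edge, and all early positions had a median of 115 kb, or 123 kb with the chromosome mix. Within 50 kb of an edge lay 15 of 62 early and 22 of 34 mid-early sites.

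For mid-early sites the nearest early border was a median of 56.5 kb away (16.8 to 110). All mid-early positions had 166 kb, or 96.7 kb without intervals over 1 Mb, a value inside the sites' interval. By side, the median was 201 kb on the lower and 97.9 kb on the higher side. An early border lay within 100 kb of 23 of 34 sites (67.6%, 49.5 to 82.6). Of the positions it was 40%, 45.9% with the chromosome mix and 50.7% without intervals over 1 Mb. Only the last of these values is inside the interval. At the other end of the range, 2 mid-early sites had no early border within 1 Mb.

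The neighbours of the domains cut fell into few kinds. Of 62 early sites, 59 (95.2%) cut a domain with mid-early sequence on both sides, and early domains of this kind hold 95.5% of early length. The other 3 had mid-late sequence on 1 side. Of 34 mid-early sites, 12 (35.3%, 19.7 to 53.5) lay between early domains, 13 (38.2%) on a step from early to mid-late, and 9 (26.5%, 12.9 to 44.4) between mid-late domains. Mid-early domains of these 3 kinds hold 23.6%, 32.2% and 43.8% of mid-early length, which includes intervals over 1 Mb that no site cut. By number they are 31.3%, 38.2% and 29.9% of mid-early domains. All these values are inside the intervals of their sites, which for the 13 sites is 22.2 to 56.4.

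Beyond the edges of the early domains cut, timing went back to early at a larger share of edges than at early domains in general. The 57 domains cut have 111 edges with mid-early sequence next to them, each counted 1 time. That mid-early stretch had a median of 64.3 kb, beside 82.4 kb over the 5025 such edges of all early domains. Behind it was early sequence at 82 edges (73.9%) and mid-late sequence at 29 (26.1%), beside 62.0% and 37.8% in general. The domains cut are larger than the rest, and this difference was not tested.

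Late-replicating sequence was far from these sites. The nearest late border lay at a median of 2733 kb (2041 to 3679, n = 96), from 127 kb to 17877 kb. All early and mid-early positions, weighted to the same class mix, had a median of 1919 kb, or 1999 kb with the chromosome mix, and both are below the interval of the sites. Early sites had 2988 kb (2339 to 3960) beside 2106 kb for early positions and 2300 kb with the chromosome mix, both below the interval. Mid-early sites had 2189 kb (1316 to 3679) beside 1490 kb and 1373 kb, both inside the interval. Without mid-early intervals over 1 Mb the mid-early positions had 1316 kb.

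Late sequence within 500 kb was listed for 4 of 96 sites (4.17%, 1.15 to 10.3), and within 1 Mb for 11 (11.5%). Of the positions, 7.98% had it within 500 kb, a value inside the interval, and 24.4% within 1 Mb. The border of mid-late or late sequence, the first step out of the earlier classes, was nearer. For early sites it was 758 kb away (511 to 893), beside 584 kb for all early positions. For mid-early sites it was 161 kb (71.2 to 360), beside 167 kb, a value inside the interval. The closeness of these medians depends on the reference, which includes mid-early intervals over 1 Mb that none of the sites cut. Without them the median of the positions was lower, below that of the sites but still inside the interval. With the chromosome mix it was also below that of the sites and inside the interval.

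The 6 sites nearest a late border were on 6 chromosomes. The nearest, the mid-early site chr13:24734908-24734915, had a late domain of 31.1 kb that began 127 kb away on the higher side. A mid-early site on chromosome 8 had a late domain of 94.9 kb at 336 kb and one of 1210 kb at 456 kb, both on the lower side. The early site chr20:37360268-37360275 had late domains of 52.0 kb at 370 kb and of 700 kb at 468 kb on the higher side. The mid-early site chr5:43041612-43041619 had one of 58.9 kb at 463 kb. In these 4 windows the late sequence was between 31.1 and 139 kb long. The next were the early site chr7:152162008-152162015 at 537 kb and the mid-early site chrX:149862465-149862472 at 557 kb.

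The 3 sites farthest from late sequence lay side by side at chr19:2455992-2455999, chr19:2456093-2456100 and chr19:2456595-2456602, with the first late border 17877 kb above the first of them. No late sequence was listed between them and the lower end of the chromosome. They share 1 domain of 882 kb and nearly the same window, so they amount to a single place.

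Of the 96 sites, 82 had a late border on both sides. The stretch without late sequence around these 82 was a median of 8.63 Mb long, from 1.39 to 34.2 Mb, and the far border was a median of 2.27 times as distant as the near one. By class this ratio was 1.96 for early sites, beside 2.30 for all early positions with both borders, and 3.33 for mid-early sites, beside 2.89. The near border was on the lower side for 47 of the 82. For 9 sites there was no late border on the lower side and for 5 none on the higher side. Only 1 of the 82, the mid-early site chr5:43041612-43041619, had late borders on both sides within 1 Mb.

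**Figure D4:**
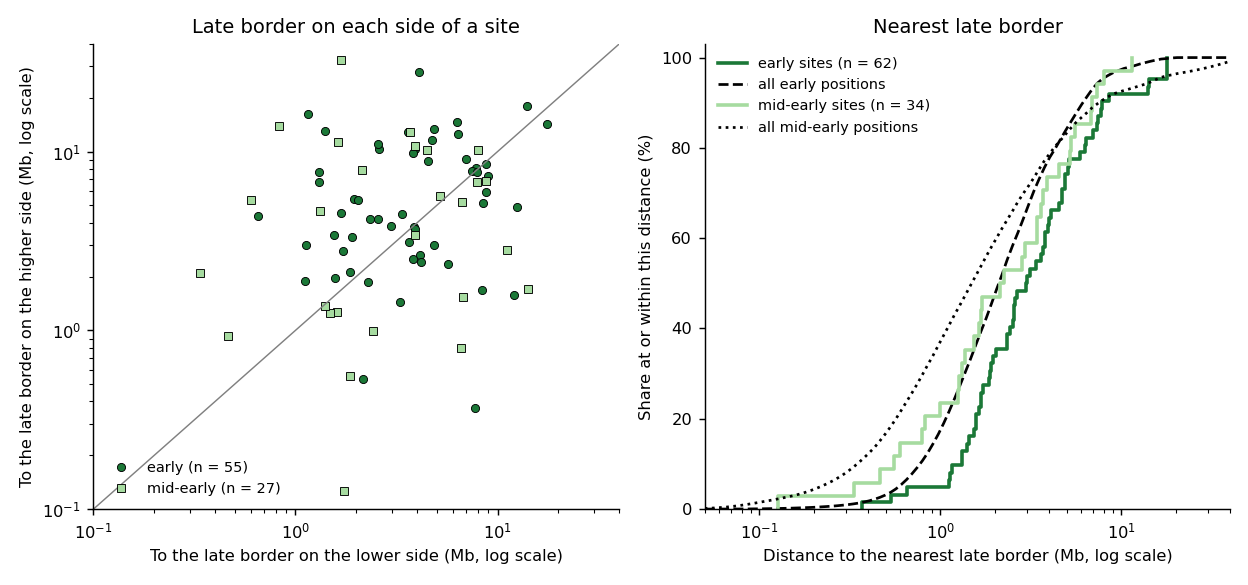
Left, distance in Mb to the late border on the lower (horizontal) and the higher side (vertical) for the 82 sites with both, on log axes, with the line of equal distance. Right, cumulative share of sites (%) by distance to the nearest late border on a log axis, with all positions of each class as black lines. Both site curves lie to the right of their class in the middle of the range, at medians of 2988 and 2189 kb against 2106 and 1490 kb.

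Mid-early sites stood nearer to chromosome ends than mid-early positions, at a median of 18.9 Mb beside 30.5 Mb, while early sites had 32.2 Mb beside 30.4 Mb. Within 5 Mb of an end lay 18 of 96 sites (18.8%, 11.5 to 28.0), beside 8.08% of positions. The shares were 14.5% (6.86 to 25.8) of early sites beside 7.18%, and 26.5% (12.9 to 44.4) of mid-early sites beside 9.73%. The interval of the early sites holds the value of its positions, and that of the mid-early sites lies above its own. Leaving out mid-early intervals over 1 Mb raised the share of mid-early positions, to a value still below that interval. None of these positions were weighted to the chromosomes of the sites, and distance to an end depends on chromosome length. Whether the difference holds with the chromosome mix was not tested. The window of 1 mid-early site ran past the end of the listed sequence.

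Most sites were far apart. The nearest other listed site, of either kind, was a median of 4667 kb away (3198 to 6818, n = 95 sites with another on their chromosome). Another site lay within 500 kb of 9 of 96 sites (9.38%, 4.38 to 17.1) and within 1 Mb of 24 (25%, 16.7 to 34.9). Of the 33 sites in later-replicating sequence, 0 had a neighbour within 500 kb (0 to 10.6%) and 3 within 1 Mb.

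The neighbours within 500 kb were all in fact within 100 kb. The pairs within 50 kb were those of the chromosome 19 triplet, with spacings of 101 and 502 bp. The other 3 pairs, picked out after their spacings were seen, were chr1:9649445-9649452 with chr1:9711865-9711872 (62.4 kb), chr22:20785433-20785440 with chr22:20850307-20850314 (64.9 kb) and the chromosome 2 pair at 94.2 kb. The chromosome 1 and chromosome 2 pairs each cut 1 early domain, and the chromosome 22 pair an early and a neighbouring mid-early domain. In all, 14 neighbouring pairs within 1 Mb held at least 1 of the 96 sites, and in 5 of them both sites cut the same domain. The windows of 21 sites overlapped that of another, and 37 of the 801 intervals were in more than 1 window.

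NS-seq peaks were counted by their midpoint, and the list holds 3733 nuclear peaks of 1000 bp each. The windows held 314 pairs of a site and a peak, or 276 different peaks (7.39% of the list). Of these 276 peaks 53.3% were in early, 35.1% in mid-early, 11.2% in mid-late and 0.362% in late sequence. The density of the 314 pairs was 3.28 peaks per Mb (exact Poisson interval 2.93 to 3.66). Around all positions in the same class mix it was 1.92 per Mb, or 2.59 with the sites' chromosome mix. With bases and peaks of overlapping windows counted 1 time, the density around the sites was 3.08 per Mb. The authors' score of these peaks had a median of 11.5, and that of all peaks in early and mid-early sequence was 11.7.

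In steps of 50 kb, density did not fall steadily with distance from the site. In the 10 steps from 0 to 500 kb it was 3.23, 3.65, 4.06, 2.92, 2.40, 4.18, 2.62, 3.56, 3.04 and 3.14 per Mb. All positions with the sites' chromosome mix had between 2.44 and 2.63 per Mb, and in 8 of the 10 steps the sites' interval held that value. The 2 steps that did not were 100 to 150 kb (2.89 to 5.55) and 250 to 300 kb (2.98 to 5.69). Both steps hold peaks of the chromosome 19 triplet, a single place, which are counted again for each of its sites. The intervals do not allow for this, and whether these steps stand out with the triplet taken as a single site was not tested. Inside the first step, 11 of its 31 peaks lay within 10 kb of a site. The mean was 0.115 peaks per site within 10 kb, beside 0.0484 at positions with the chromosome mix. Within 50 kb it was 0.323, beside 0.244.

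Peaks were concentrated at few sites and few chromosomes. No peak lay within 500 kb of 38 sites (39.6%), while 9 sites with 10 or more peaks held 139 of the 314 pairs (44.3%). The 22 sites on chromosomes 17, 19 and 22, which are dense in NS-seq peaks as a whole, held 57.0% of pairs at 8.14 per Mb. The 74 sites elsewhere had 1.83 per Mb. Early and mid-early positions on these 3 chromosomes had means of 5.72 and 5.33 peaks within 500 kb. Elsewhere such positions had 1.71 and 1.21. The 3 neighbouring chromosome 19 sites share the same 13 peaks, so these are counted 3 times among the pairs.

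The 6 sites with most peaks were on chromosomes 17, 19 and 21. They were the mid-early site chr17:80250840-80250847 with 25 peaks, the mid-early site chr19:38827326-38827333 with 18, the early site chr21:46221789-46221796 with 18, the mid-early site chr19:42497855-42497862 with 15, the early site chr17:38137472-38137479 with 14 and the early site chr19:2455992-2455999 with 13. Of these, the 2 mid-early sites on chromosome 19 also had a peak within 1 kb, at 0.306 and 0.597 kb. The other 4 had their nearest peak 21.7 to 38.1 kb away.

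A peak was within 10 kb of 9 sites (9.38%, 4.38 to 17.1), within 50 kb of 24 (25%, 16.7 to 34.9), within 100 kb of 37 (38.5%, 28.8 to 49.0), within 250 kb of 46 (47.9%, 37.6 to 58.4) and within 500 kb of 58 (60.4%, 49.9 to 70.3). All positions with the same class and chromosome mix had 4.15%, 15.0%, 23.8%, 39.7% and 53.9%. The first 3 of these values lie below the intervals of the sites and the last 2 inside them. By class, the values up to 100 kb were below the intervals for mid-early sites only. Within 10 kb it was 5 of 34 mid-early sites (14.7%, 4.95 to 31.1), beside 4.55%, and within 50 kb 12 (35.3%, 19.7 to 53.5), beside 15.3%. For early sites it was 4 of 62 (6.45%, 1.79 to 15.7), beside 3.93%, and 12 (19.4%, 10.4 to 31.4), beside 14.8%. Mid-late sites, which the rule leaves out, had higher shares than their positions at 50 and 100 kb too. A peak was within 50 kb of 5 of 30 mid-late sites (16.7%, 5.64 to 34.7), beside 7.02% of mid-late positions with the chromosome mix, and within 100 kb of 8 (26.7%, 12.3 to 45.9), beside 11.6%. Within 10 kb it was 0 of 30 (0 to 11.6%), beside 1.82%.

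Over all sites, a peak within 100 kb was more frequent at mid-early than at early sites. Near chromosome ends the share was higher at early sites, but there the chromosome 19 triplet, a single place, counts as separate sites. Within 100 kb a peak was listed for 17 of 34 mid-early sites (50%, 32.4 to 67.6) and for 20 of 62 early sites (32.3%, 20.9 to 45.3). The positions of these classes, with the chromosome mix, had 22.5% and 24.5%. In the first 3 steps mid-early sites had 5.00, 5.88 and 4.71 peaks per Mb, beside 2.61, 2.55 and 2.35 at the positions, and early sites had 2.26, 2.42 and 3.71. The excess of mid-early sites was not confined to short range, since their density was 5.07 per Mb at 350 to 400 kb, beside 2.26 at the positions. Past 100 kb no further mid-early site gained a peak until beyond 250 kb. The difference between the classes was not tested, and their intervals overlap.

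Both classes of site were also split by chromosome and by distance from the chromosome end. On chromosomes other than 17, 19 and 22, 10 of 25 mid-early sites (40%, 21.1 to 61.3) had a peak within 100 kb, beside 12.9% of mid-early positions there. Over 5 Mb from an end it was 11 of 25 (44.0%, 24.4 to 65.1), beside 11.9%. Within 5 Mb of an end it was 6 of 9 (66.7%, 29.9 to 92.5), beside 49.3%. On chromosomes 17, 19 and 22 it was 7 of 9 (77.8%, 40 to 97.2), beside 49.0%. In the last 2 of these groups the interval of the mid-early sites holds the value of the positions, and in the first 2 it does not. Early sites on chromosomes other than 17, 19 and 22 had a peak within 100 kb in 14 of 49 cases (28.6%, 16.6 to 43.3), beside 17.7% of early positions. Over 5 Mb from an end it was 13 of 53 (24.5%, 13.8 to 38.3), beside 18.9%. Within 5 Mb of an end it was 7 of 9 early sites (77.8%, 40 to 97.2), beside 49.1%. On chromosomes 17, 19 and 22 it was 6 of 13 (46.2%, 19.2 to 74.9), beside 45.8%. Each member of the chromosome 19 triplet, a single place with shared peaks, counts among both these 7 and these 6. For early sites all 4 intervals hold the value of the positions. The positions used here include mid-early intervals over 1 Mb. Leaving these out raised the share of all mid-early positions with a peak within 100 kb from 15.1% to 19.1%.

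**Figure D5:**
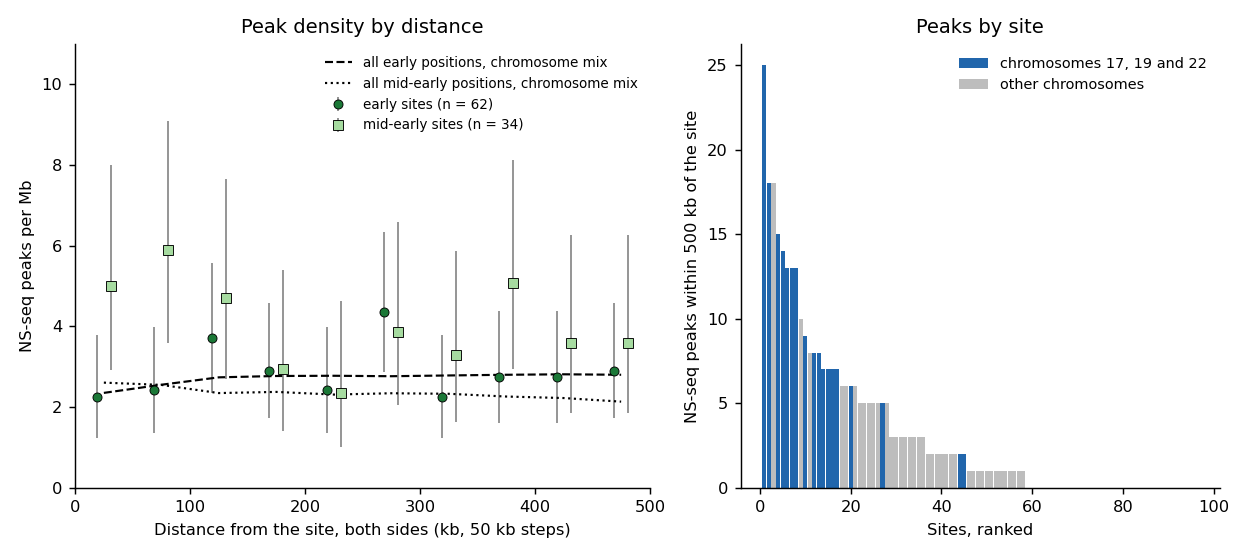
Left, NS-seq peaks per Mb by distance from the site in 50 kb steps, for early (circles) and mid-early sites (squares), with exact Poisson intervals as bars and all positions of each class with the chromosome mix as black lines. Right, peaks within 500 kb of each of the 96 sites, ranked, with chromosomes 17, 19 and 22 in blue. The 38 sites at the right end have no peak.

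The rule that a site counts as earlier-replicating has an edge, at the border between mid-early and mid-late sequence. The sites just inside it were chr17:1628453-1628460 at 2.96 kb, chrX:149862465-149862472 at 4.57 kb and chr19:45932079-45932086 at 13.4 kb from that border. The sites just outside were chr1:228328080-228328087 at 5.82 kb, chr20:42087117-42087124 at 5.82 kb and chr16:1543500-1543507 at 11 kb. Interval borders are set in steps of 100 bp, so these distances are no finer than that.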

How the data were processed

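The 6 lists hold regions on hg19, per the submitters' processing notes, which also name MACS2 without a version. Not given in the sources used here are the aligner, the cut points between timing classes and which libraries were merged. The NS-seq score is the authors' value, deposited without a stated scale, and the other deposited columns are positions. Samples were grouped by their titles.

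Adjacent intervals of a class were joined into domains, and distances run from a site's midpoint. Shares of sites have exact Clopper-Pearson intervals, mean class shares the SD and standard error over sites, medians exact order-statistic intervals and densities exact Poisson intervals at 95%. Reference values come from all positions on a 1 kb grid. The measures were tested on simulated data. Python 3.11.15, numpy 2.4.6, pandas 2.3.3 and scipy 1.17.1 were used.

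The members, measures and named regions were chosen with earlier results of these data known. The named regions are the largest and smallest domains cut, the sites nearest to and farthest from late sequence, pairs within 50 kb, the sites with most peaks, wholly early windows and windows with late sequence. A Wilson interval served to compare mean class shares between alternatives. The alternatives changed the window, close sites, chromosomes, bridging of short stretches, the late class and the peak list. The mitochondrial intervals and peaks were left out.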

Additional observations from a re-analysis of the deposited data

How the results depend on the processing

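Of 271 recalculations of 9 results, 256 stayed inside the 95% interval of the reported value and 15 did not. Most of them left out a chromosome, 23 in turn for each result, which removes few sites or none. Of the 15 that moved, 2 were of this kind, so the count of 256 says little on the other settings. With a window of 1000 kb, the early share in the outermost step around early sites was 57.5%, 11.5% of sites had late sequence in the window, 25% had another site and 70.8% had a peak. With a window of 250 kb, 1.04% had late sequence and 47.9% had a peak. With mid-late and late joined, 49.0% of sites had such sequence within 500 kb and the median border distance was 508 kb. Bridging stretches of up to 50 kb raised the median early domain cut to 909 kb. Keeping the lowest of sites under 100 kb apart left 0% with another site within 500 kb. With peaks at or above the median score, 41.7% of sites had a peak within 500 kb and the density was 1.46 per Mb, and with peaks within 10 kb joined it was 2.71 per Mb. Leaving out each chromosome in turn gave 2.56 (without chromosome 19) to 3.49 peaks per Mb. The changes with window, class and peak list follow from what each setting counts.

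No paired analysis was possible because no list separates replicates. Depth is unknown, timing and breaks come from different cell lines, and sites on 1 chromosome share its peak density.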
